A study of Mus musculus with 12 samples.

Results

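The 10 enzymes described here make serine, carry its carbon into the folate cycle and turn its backbone into cysteine. They were taken by symbol from the deposited count table as Phgdh, Psat1, Psph, Shmt1, Shmt2, Mthfd2, Mthfd1l, Cth, Cbs and Aldh1l2, so that the members are 10 of 53819 symbols, and all 10 were among the 13852 genes that passed the filter on low counts. Messenger RNA was counted from its 3′ end. The 12 libraries came from E14, a standard line of pluripotent cells from mouse embryos, grown in 2 dimensions. The groups were cells given L-proline and budesonide together for 72 h, cells given L-proline for 72 h, cells given budesonide (a synthetic glucocorticoid) for 72 h, and untreated control cells, with 3 libraries each. The labels name no dose and no solvent in the controls, and they do not say whether the libraries of a group came from separate cultures. The p-values therefore reflect library-to-library spread, part or all of which may be technical.

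Serine is made from the glycolytic intermediate phosphoglycerate by Phgdh (the dehydrogenase of the first step), Psat1 (the transaminase of the second) and Psph (the phosphatase of the last). Shmt1 in the cytosol and Shmt2 in mitochondria split serine into glycine and a one-carbon unit on tetrahydrofolate. In mitochondria, Mthfd2 oxidises that unit, Mthfd1l releases it as formate for the cytosol, and Aldh1l2 burns it to carbon dioxide while making NADPH. Cbs joins serine to homocysteine, and Cth cleaves the product to cysteine. Many of these genes are known targets of Atf4, the transcription factor of the amino acid response, and mouse embryonic stem cells are known to draw one-carbon units from threonine as well.

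Library totals ran between 5.30 M and 15.9 M counts, the deepest being proline 1. Control 3 and budesonide 3 stood apart, control 3 by a narrower margin. Their log2 CPM correlated least with the other libraries of their group, at 0.919 and 0.922 for control 3 and 0.887 and 0.904 for budesonide 3. Other pairs within a group had 0.928 to 0.956. Of the genes tested, 8.43% had a count of 0 in budesonide 3 and 6.57% in control 3, where the other 10 libraries had 1.39% to 5.77%. The 10 stem cell markers (Pou5f1, Sox2, Nanog, Zfp42, Esrrb, Utf1, Dppa5a, Tdgf1, Sall4 and Lin28a) had counts in every group. Their summed level was 3457 to 3683 CPM with both compounds, 3565 to 4024 with proline, 3137 to 3305 with budesonide and 3593 to 4238 in control, where CPM is the count as a rate per M counts after scaling by the trimmed mean of M values (TMM). Of 7 endoderm markers, 6 had counts with both compounds, 6 with proline, 5 with budesonide and 6 in control, Ttr being at 0 in each group. They summed to 8.48 to 13.7 CPM with both compounds, 10.7 to 13.1 with proline, 3.69 to 6.77 with budesonide and at most 8.48 in control. The 8 feeder fibroblast markers summed to 0.769 to 11.7 CPM over the libraries, with Lum and Postn at 0 in each group. The 6 trophoblast markers summed to 11.6 to 25.4 CPM. Low levels of such genes in the stem cells themselves would give sums of this size too, and their part in the results below was not tested.

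Single stem cell markers moved with the treatments. Their sum overlapped between both compounds, proline and control, but each budesonide library, at most 3305 CPM, lay below all of these. With proline against control 3 of the 10 fell and 1 rose, Lin28a (log2 0.68 ± 0.12). The pluripotency factor Esrrb averaged 118 ± 13.3 CPM with proline and 376 ± 56.7 CPM in control (−1.66 ± 0.14, adjusted p = 3.68e-08 by edgeR). Nanog averaged 111 ± 17.1 CPM with proline and 217 ± 41.0 CPM in control (−0.97 ± 0.15), and Zfp42 averaged 55.2 ± 4.99 CPM with proline and 141 ± 30.7 CPM in control (−1.36 ± 0.16). With both compounds against proline 3 rose, Esrrb (1.52 ± 0.14), Nanog (1.33 ± 0.15) and Zfp42 (1.10 ± 0.16), and 3 fell, Utf1, Tdgf1 and Lin28a. Tdgf1 and Utf1 were the 2 called, both lower, with budesonide against control and with both compounds against control. With both compounds against budesonide 0 of the 10 were called by edgeR, with 1 at an unadjusted p below 0.05. Of all genes, 7.88% were called with proline against control, 10.1% with both against proline and 6.51% with budesonide against control. The share was 7.17% with both against control and 1.47% with both against budesonide. At 1.47%, a count of 0 of 10 does not set the markers apart from other genes. The part of this change of markers in the enzyme results was not tested.

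A 3′ kit gives about 1 fragment per transcript whatever the transcript's length, so that CPM of different genes can be set side by side as transcript levels, as far as the 3′ ends of each gene are equally well counted. In control cells Psat1 was the most abundant at 399.9 ± 57.7 CPM (SD, n = 3, as for all means here), with all its libraries above those of the next gene. Shmt2, Shmt1 and Mthfd2 followed at 219.7 ± 21.7, 196 ± 26.9 and 185 ± 24.2 CPM, and neighbours among these 3 overlapped. Mthfd1l stood at 138 ± 12.5, Cth at 66.6 ± 2.55, Psph at 51.0 ± 7.64, Cbs at 26.9 ± 10.8 and Phgdh at 26.6 ± 7.22 CPM, and only Cbs and Phgdh of these overlapped. Aldh1l2 was near the detection limit at 1.03 ± 1.52 CPM. With both compounds Psat1 had lost its lead. Shmt2 (175 ± 17.8 CPM), Psat1 (173 ± 28.3) and Shmt1 (163 ± 1.83) then overlapped as neighbours at the top. The 10 genes together summed to 877 to 917 CPM per library with both compounds and 1017 to 1092 with proline. The sum was 1078 to 1186 CPM with budesonide and 1240 to 1435 in control. Each treated library thus lay below each control library in this sum, which does not show that every member fell. With budesonide, Psat1 averaged 276 ± 5.76 CPM, and against control 6 members had negative and 4 positive log2 changes. Psat1 made up 388 of 1240 CPM in control 1 and 272 of 1133 CPM in budesonide 1. Without Psat1 the sums of the budesonide and control libraries overlapped. Those with proline and with both compounds stayed below control.

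**Figure D1:**
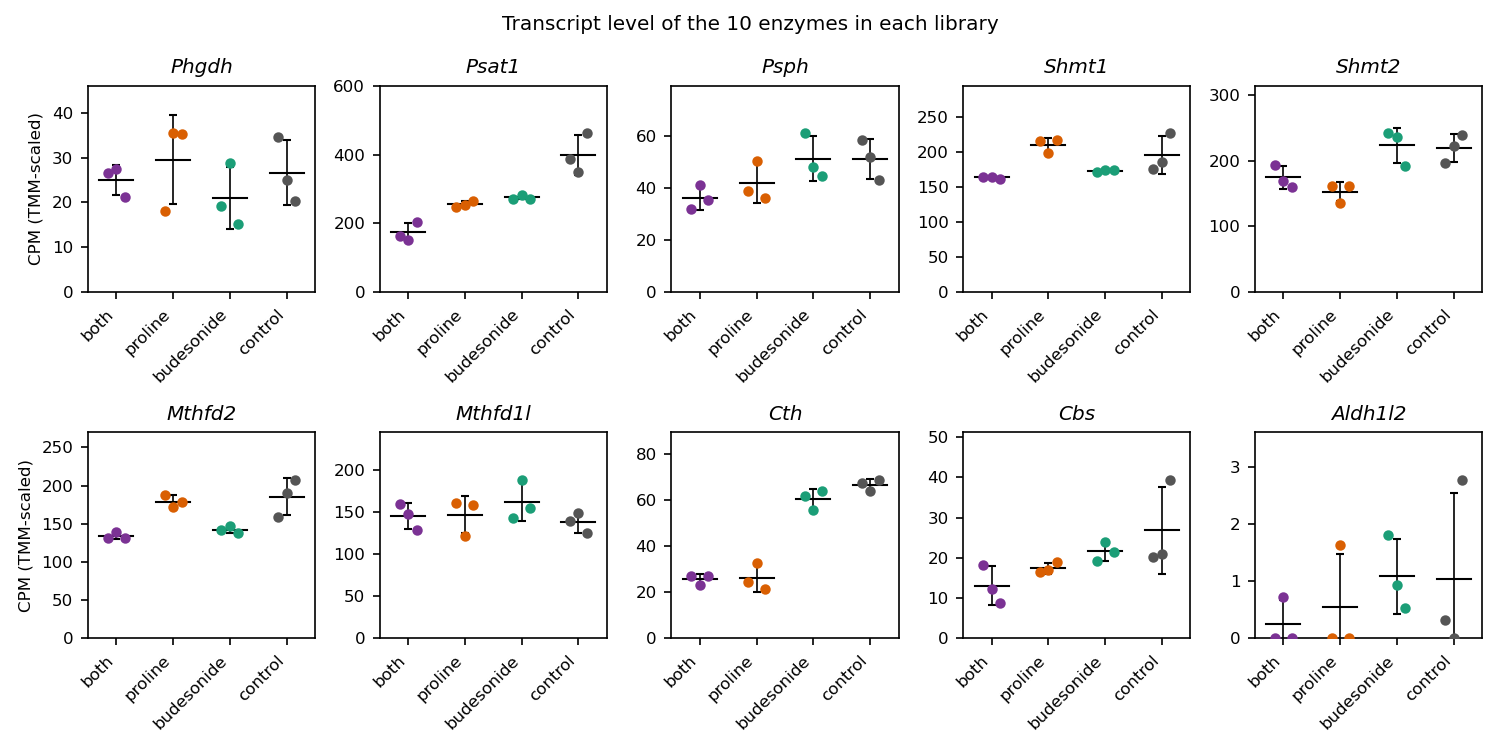
Level of each of the 10 enzymes in CPM (vertical axis, from 0) in the 3 libraries (points) of cells given both compounds, proline, budesonide, or nothing (control), with the group mean (line) and SD (bar, not drawn below 0). Psat1 steps down to 173 CPM with both compounds against 399.9 CPM in control, Cth is near 26 CPM in both groups that received proline and above 55 CPM in the groups that did not, and Mthfd1l overlaps between all groups.

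Promoter sequence was compared because Atf4 acts through a known element, the C/EBP-ATF response element, searched here as TGATGNAA on both strands. Of the 10 members, 8 matched by symbol in RefSeq's promoter windows (build GRCm38.p6, 250 bases before to 50 after a start site, 300 in all), with 9 windows because Psat1 has 2 start sites. Cth and Aldh1l2 were not matched. The element was in 0 of the 9 windows and in 3.97% of all 32851 windows. CCAAT, the box bound by NF-Y, was in 6 of the 9 on either strand and in 37.4% of all windows. The E-box CACGTG was in 1, that of Cbs, and in 7.15% of all, and the cyclic AMP element TGACGTCA in 0 and in 1.79%. None of these motifs overlapped another in the windows of the members. The windows are shown for Psat1 (first start site, minus strand, chr19:15925010-15925309) and Mthfd2 (minus strand, chr6:83317555-83317854), which each hold 3 CCAAT boxes, and for Shmt2 (minus strand, chr10:127522395-127522694), which holds none of the motifs. The window of Asns, asparagine synthetase and a standard Atf4 target (minus strand, chr6:7693160-7693459), is shown beside them because it holds TGATGAAA. Capitals mark every match to any of the 4 motifs on either strand. A match is a description of letters and not a bound site, and a missing match says only that these letters are not in this window.
Psat1: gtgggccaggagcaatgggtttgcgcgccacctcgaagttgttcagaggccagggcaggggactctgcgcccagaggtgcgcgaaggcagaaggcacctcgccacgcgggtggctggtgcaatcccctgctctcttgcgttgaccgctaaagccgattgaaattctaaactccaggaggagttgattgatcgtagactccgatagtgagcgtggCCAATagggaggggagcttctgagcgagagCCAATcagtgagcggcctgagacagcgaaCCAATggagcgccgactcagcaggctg
Mthfd2: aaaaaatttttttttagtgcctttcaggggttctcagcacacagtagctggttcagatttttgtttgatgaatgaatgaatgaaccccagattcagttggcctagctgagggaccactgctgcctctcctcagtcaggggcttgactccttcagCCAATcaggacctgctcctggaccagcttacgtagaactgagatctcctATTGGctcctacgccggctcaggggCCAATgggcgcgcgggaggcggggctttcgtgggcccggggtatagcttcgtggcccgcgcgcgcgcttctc
Shmt2: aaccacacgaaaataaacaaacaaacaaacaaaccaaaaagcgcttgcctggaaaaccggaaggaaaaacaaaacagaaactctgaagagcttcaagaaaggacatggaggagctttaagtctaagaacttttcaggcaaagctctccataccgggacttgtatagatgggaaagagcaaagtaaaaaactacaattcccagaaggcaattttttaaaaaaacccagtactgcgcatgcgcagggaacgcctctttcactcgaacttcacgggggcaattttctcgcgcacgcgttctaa
Asns: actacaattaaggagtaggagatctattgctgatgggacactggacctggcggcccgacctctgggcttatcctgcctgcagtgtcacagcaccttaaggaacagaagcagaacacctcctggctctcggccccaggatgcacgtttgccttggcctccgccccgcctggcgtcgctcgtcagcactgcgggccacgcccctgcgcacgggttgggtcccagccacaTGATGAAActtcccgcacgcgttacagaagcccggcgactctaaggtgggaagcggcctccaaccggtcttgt

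The first question was what proline did to these genes in the absence of budesonide. Of the 10, 3 fell and 7 were not called, where 7.88% of all tested genes were called and 4.71% were lower (edgeR's quasi-likelihood test, Benjamini-Hochberg adjusted p below 0.05 over all genes). The 3 were Cth, Psat1 and Shmt2, one each from the cysteine, serine and one-carbon steps. The median log2 change of the members was −0.41, beside −0.01 for all genes tested. For 4 of the 10, the fourth being Cbs, every proline library lay below every control library, as was so for 14% of all genes. In bulk samples such as these, fewer cells that express a gene and less of its RNA per cell cannot be told apart.

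Cth, the lyase that releases cysteine, had the largest of these falls. It had 24.3, 32.9 and 21.5 CPM in the proline libraries, against 67.3, 63.8 and 68.8 CPM in control. Every proline library lay far below every control library, and proline 2 was the highest of its group. The log2 change was −1.35 ± 0.20 (SE), with an adjusted p of 7.31e-05 in edgeR's test, and the call held under all 14 alternatives, with an adjusted p of at most 0.00116.

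Cbs, the synthase of the step before Cth, is a gene of low count here. It had 16.4, 16.9 and 18.9 CPM in the proline libraries, against 20.3, 21.0 and 39.3 CPM in control. The groups did not overlap, but the control mean rests on control 3, one of the libraries that stood apart, and Cbs was not called (log2 −0.63 ± 0.31, adjusted p = 0.268 by edgeR). Without control 3 the log2 change was −0.25.

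Psat1, the transaminase of serine synthesis, had 249, 253 and 266 CPM with proline, against 388, 349 and 462 CPM in control. The groups were well apart and the proline libraries were close together. It fell by 0.65 ± 0.13 on the log2 scale (adjusted p = 0.00185 by edgeR), and the call held under all 14 alternatives, with an adjusted p of at most 0.0134. The other enzymes of serine synthesis were not called. Phgdh had 18.1, 35.4 and 35.2 CPM with proline, against 34.5, 25.1 and 20.4 CPM in control, so that its groups overlapped throughout (log2 0.14, 95% interval −0.48 to 0.76). Psph had 38.7, 50.3 and 35.8 CPM with proline, against 58.3, 51.7 and 43.0 CPM in control, which also overlapped (log2 −0.29, interval −0.72 to 0.13). The table lists a pseudogene Phgdh-ps1 at 0 in every library. How reads that match several places were counted is not given in the sources used here, so the low level of Phgdh beside Psat1 may not be its transcript level.

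Shmt2, the mitochondrial enzyme, had 162, 136 and 162 CPM with proline, against 197, 222 and 239.96 CPM in control, with no overlap. It fell by 0.52 ± 0.13 on the log2 scale (adjusted p = 0.0150 by edgeR). That call ended without control 2 (adjusted p = 0.0552), without control 3 (0.0586) and without proline 2 (0.0883), over a range of 0.00256 to 0.0883. Shmt1, the cytosolic enzyme, had 215, 198 and 216 CPM with proline, against 175, 185 and 226 CPM in control. Its groups overlapped and it was not called (log2 0.10, interval −0.15 to 0.35). The ratio of Shmt2 to Shmt1 counts within a library was 0.753, 0.686 and 0.749 with proline, against 1.12, 1.20 and 1.06 in control. In proline cells the cytosolic transcript was thus the more abundant in each library, and in control cells the mitochondrial one was. The ratios between members are descriptions, with no test.

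The mitochondrial folate enzymes downstream of Shmt2 were not called with proline. Mthfd2 had 188, 171 and 178 CPM with proline, against 159, 189.9 and 207 CPM in control (log2 −0.05, interval −0.31 to 0.20), and Mthfd1l had 161, 122 and 159 CPM with proline, against 139, 149.8 and 125 CPM in control (log2 0.09, interval −0.21 to 0.39). Both overlapped fully between the groups. Aldh1l2 had 0, 11 and 0 counts with proline, against 2, 0 and 18 counts in control. A count of 0 in these libraries allows up to 0.196 to 0.578 CPM by counting error alone (3 counts of the library's scaled total), so changes of this gene were not detectable at this depth.

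**Figure D2:**
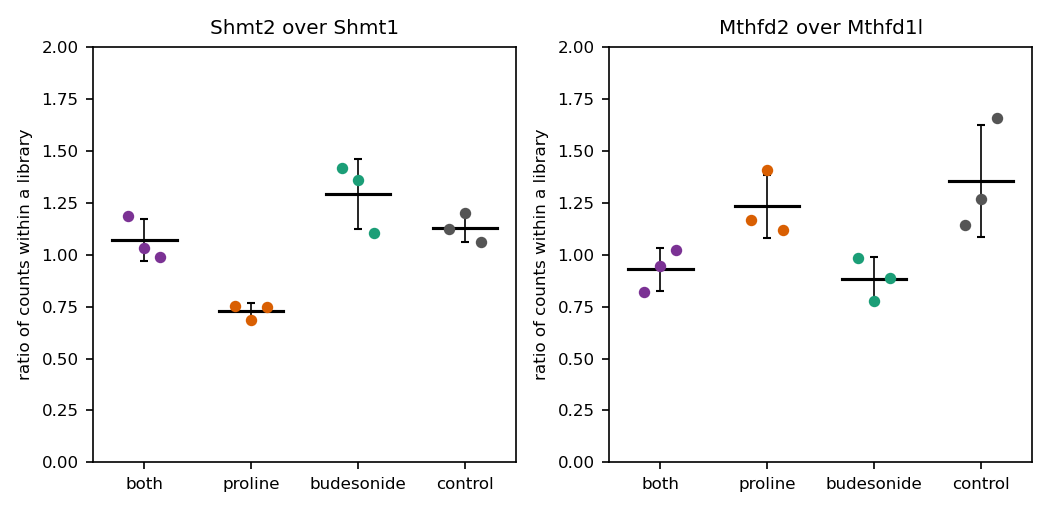
Ratio of the counts of Shmt2 to Shmt1 (left) and of Mthfd2 to Mthfd1l (right) within each library (points), with the group mean (line) and SD (bar), on axes from 0. The 3 proline libraries hold the lowest Shmt2 to Shmt1 ratios (0.686 to 0.753), and the 6 libraries with budesonide hold Mthfd2 to Mthfd1l ratios of 0.778 to 1.02, below the 1.12 to 1.66 of the other 6.

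The second comparison asked what proline did in cells that also received budesonide. It shares no library with the first. Of the 10 members 2 fell and 8 were not called, where 1.47% of all genes were called and 0.592% were lower, and the median log2 change was −0.43 beside 0.01 for all genes. For 5 of the 10 every library with both compounds lay below every budesonide library, beside 9.23% of all genes. The 2 called were Cth and Psat1.

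Cth had 26.9, 23.0 and 27.1 CPM with both compounds, against 61.9, 55.6 and 63.9 CPM with budesonide alone. Its log2 change of −1.24 ± 0.20 (adjusted p = 0.00178 by edgeR) was called under all 14 alternatives, with an adjusted p of at most 0.0140. The interaction, which is the proline effect with budesonide minus that without, was 0.11 for Cth on the log2 scale, with an interval of −0.46 to 0.68 and an adjusted p of 0.960. Psat1 had 164, 150.5 and 205 CPM with both compounds, against 272, 282 and 272 CPM with budesonide alone, and fell by 0.67 ± 0.13 (adjusted p = 0.00750 by edgeR). This call ended without both 1 (0.0529) and without both 2 (0.0566), over a range of 6.82e-05 to 0.0566. The interaction for Psat1 was −0.02, with an interval of −0.40 to 0.35.

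Shmt2 had 194, 170.05 and 159.7 CPM with both compounds, against 242, 237 and 192 CPM with budesonide alone. The groups overlapped by 1 library each, and Shmt2 was not called here (log2 −0.36 ± 0.13, adjusted p = 0.210 by edgeR). The difference from its fall without budesonide was 0.16, with an interval of −0.22 to 0.55. Psph stood at 35.9 ± 4.67 CPM with both compounds and 51.0 ± 8.62 CPM with budesonide alone, and its libraries did not overlap, but it was not called (log2 −0.51 ± 0.21, adjusted p = 0.272 by edgeR). Cbs was likewise apart and not called, at 13.1 ± 4.87 CPM with both compounds and 21.6 ± 2.37 CPM with budesonide alone (log2 −0.72 ± 0.31, adjusted p = 0.309 by edgeR). In the interaction 0 of the 10 members were called by edgeR, where 0.469% of all genes were, and 0 had an unadjusted p below 0.05. The number called stayed at 0 under all 19 alternatives, DESeq2 and limma-voom among them. Where 0 of the members had an unadjusted p below 0.05, 8.65% of all genes did. A missing call does not show that proline acted alike with and without budesonide, and the intervals of Shmt1 (−0.54 to 0.17) and Mthfd2 (−0.39 to 0.33) show how large a difference these libraries allow.

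**Figure D3:**
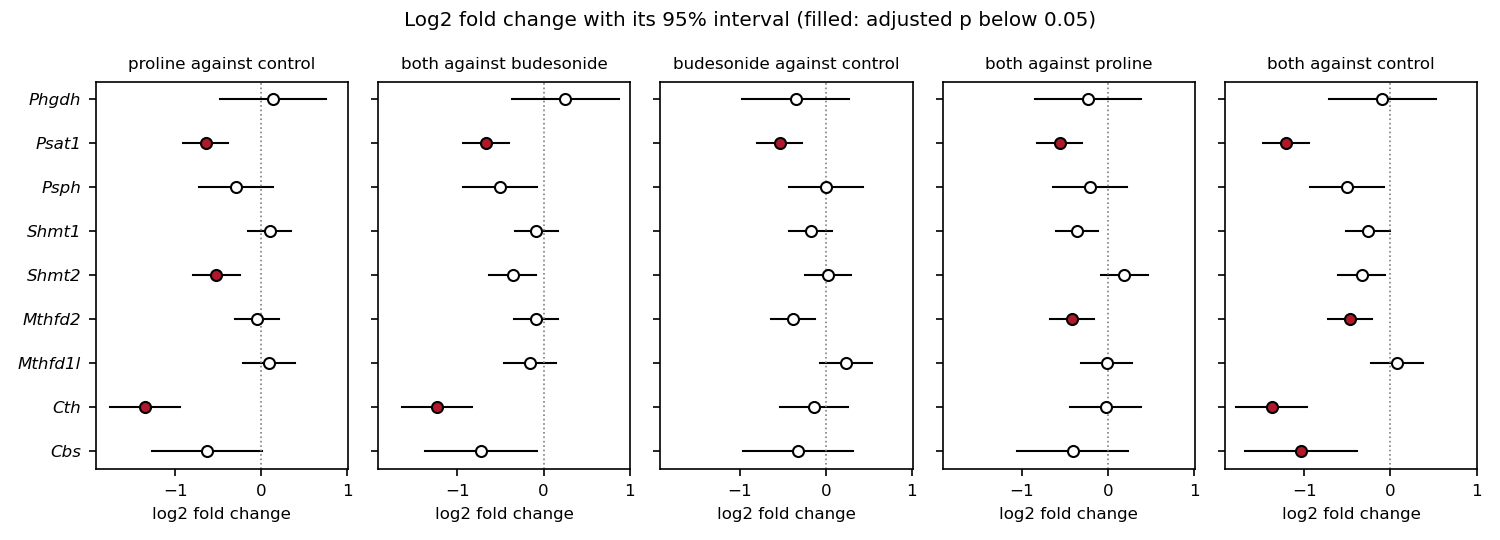
Log2 fold change (point) with its 95% interval (line) of 9 enzymes in 5 comparisons, filled where edgeR's adjusted p was below 0.05. Aldh1l2 is left out because its counts are near 0. Cth lies near −1.3 in each comparison of cells that received proline with cells that did not and near 0 in the budesonide comparisons, while Psat1 is filled in all 5.

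Budesonide alone was set against the same control libraries as proline alone. Of the 10 members 1 fell, Psat1, and 9 were not called, where 6.51% of all genes were called and 4% were lower. For 3 of the 10, Psat1, Mthfd2 and Shmt1, every budesonide library lay below every control library, beside 12.2% of all genes. Psat1 had 272, 282 and 272 CPM with budesonide, against 388, 349 and 462 CPM in control, a log2 change of −0.54 ± 0.13 (adjusted p = 0.0111 by edgeR). The call ended without control 3 (adjusted p = 0.0613), without control 3 and budesonide 3 together (0.115, with a change of −0.41) and with offsets for transcript length and GC content (0.0706), over a range of 0.00110 to 0.115.

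Mthfd2, which oxidises the one-carbon unit in mitochondria, had 142, 147 and 138 CPM with budesonide, against 159, 189.9 and 207 CPM in control. The groups did not overlap, yet Mthfd2 was not called (log2 −0.38 ± 0.12, adjusted p = 0.0658 by edgeR), though it was by DESeq2 (0.0222) and without control 1 (0.0428), over a range of 0.0222 to 0.375. Shmt1 stood at 173 ± 2.13 CPM with budesonide and 196 ± 26.9 CPM in control (log2 −0.18 ± 0.12, adjusted p = 0.463 by edgeR). Cth had 61.9, 55.6 and 63.9 CPM with budesonide, against 67.3, 63.8 and 68.8 CPM in control, which overlapped by a narrow margin (log2 −0.14, interval −0.54 to 0.26). Shmt2 (0.03, interval −0.25 to 0.30), Mthfd1l (0.24, interval −0.06 to 0.54), Psph, Phgdh and Cbs overlapped between the groups as well. Aldh1l2 had 16, 6 and 4 counts with budesonide.

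Both compounds were then set against proline, which gives the change with budesonide on a proline background. Of the 10 members 2 fell and 8 were not called, where 10.1% of all genes were called and 4.27% were lower. For 3 of the 10, Psat1, Mthfd2 and Shmt1 again, every library with both compounds lay below every proline library, beside 15.6% of all genes. Psat1 had 164, 150.5 and 205 CPM with both compounds, against 249, 253 and 266 CPM with proline, and fell by 0.56 ± 0.13 on the log2 scale (adjusted p = 0.00533 by edgeR). The call ended without both 2 (0.0501; range 0.000423 to 0.0501). Mthfd2 had 131, 139.8 and 132 CPM with both compounds, against 188, 171 and 178 CPM with proline. These groups lay well apart and the log2 change was −0.42 ± 0.12 (adjusted p = 0.0324 by edgeR). Its call was close to the threshold and ended under 9 of 13 alternatives, the leaving out of each of the 6 libraries among them (range 0.00786 to 0.135).

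Shmt1 ran beside Mthfd2, with 164, 164 and 161 CPM with both compounds, against 215, 198 and 216 CPM with proline. The groups did not overlap and edgeR just missed the threshold (log2 −0.36 ± 0.12, adjusted p = 0.0594), while DESeq2 (0.0198), limma-voom (0.0387) and a fit of these 6 libraries alone (0.0303) called it, over a range of 0.0198 to 0.172. Shmt2 was not called, with 194, 170.05 and 159.7 CPM with both compounds, against 162, 136 and 162 CPM with proline (log2 0.19, interval −0.08 to 0.46). Cth was at 26.9, 23.0 and 27.1 CPM with both compounds, against 24.3, 32.9 and 21.5 CPM with proline (log2 −0.03, interval −0.44 to 0.38), so that budesonide left no detectable change in it in these cells. The ratio of Shmt2 to Shmt1 counts was 1.18, 1.03 and 0.991 with both compounds, against 0.753, 0.686 and 0.749 with proline, with no overlap. The ratio of Mthfd2 to Mthfd1l was 0.820, 0.946 and 1.02 with both compounds, against 1.17, 1.41 and 1.12 with proline, again with no overlap. Other ratios were also computed, and those of Psat1 to Phgdh and of Cth to Cbs overlapped between these groups. So did that of Mthfd2 to the folate cycle gene Mthfd1, at 0.408 to 0.616 with both compounds and 0.444 to 0.594 with proline. Mthfd1l itself stood at 145 ± 15.7 CPM with both compounds and 147 ± 22.0 CPM with proline (log2 −0.02, interval −0.32 to 0.28).

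Set against untreated cells, cells given both compounds had 4 of the 10 members lower and 6 not called, where 7.17% of all genes were called and 3.83% were lower. The median log2 change was −0.49, beside 0.01 for all genes, and for 7 of the 10 every library with both compounds lay below every control library, beside 14% of all genes. Psat1 had 164, 150.5 and 205 CPM with both compounds, against 388, 349 and 462 CPM in control, a log2 change of −1.21 ± 0.13 (adjusted p = 3.48e-06 by edgeR). Cth had 26.9, 23.0 and 27.1 CPM with both compounds, against 67.3, 63.8 and 68.8 CPM in control, a log2 change of −1.38 ± 0.20 (adjusted p = 0.000115 by edgeR). Both of these calls held under all 14 alternatives, with adjusted p-values of at most 0.000401 and 0.00185.

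The other calls against control were close to the threshold. Mthfd2 had 131, 139.8 and 132 CPM with both compounds, against 159, 189.9 and 207 CPM in control (log2 −0.47 ± 0.12, adjusted p = 0.0221 by edgeR). Its call ended without control 2 (0.0790), control 3 (0.106), both 1 (0.102), both 2 (0.0613) or both 3 (0.0689), and when offsets for GC content and length were used (0.0703). Its adjusted p ran between 0.00258 and 0.106 while its log2 change stayed between −0.56 and −0.38. Cbs had 18.3, 12.3 and 8.67 CPM with both compounds, against 20.3, 21.0 and 39.3 CPM in control (log2 −1.04 ± 0.31, adjusted p = 0.0449 by edgeR). Without control 3 the change of Cbs was −0.66 (adjusted p = 0.320), and the call also ended without control 2 (0.0502), both 2 (0.157) or both 3 (0.193). With every library kept it ended by limma-voom (0.0522, with a change of −1.08), in a fit of these 6 libraries alone (0.0785, −1.03) and with a replicate block (0.0827, −1.02), over a range of 0.0203 to 0.320. Psph, Shmt1 and Shmt2 lay below control in every library without a call, with log2 changes of −0.50 ± 0.21, −0.26 ± 0.12 and −0.33 ± 0.13. Phgdh (−0.10, interval −0.72 to 0.52) and Mthfd1l (0.08, interval −0.23 to 0.38) overlapped with control. Phgdh, Psph, Shmt1, Mthfd1l and Aldh1l2 were called by edgeR's main fit in none of the 6 comparisons. The share of all genes called in none was not computed. For both against proline, Shmt1 was called by DESeq2 (adjusted p = 0.0198), limma-voom (0.0387) and edgeR on these groups alone (0.0303).

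Genes around these enzymes were taken from 6 lists chosen by role. With proline, the regulators and stress response list had 6 of 15 tested genes lower, 1 higher and 8 not called, where 4.71% of all genes were lower and 3.17% higher. Those lower were led by Nupr1, a stress-induced chromatin protein (log2 −2.05 ± 0.48), Ddit3, the stress factor CHOP (−1.91 ± 0.55), the Atf4 relative Atf5 (−1.63 ± 0.31) and Asns (−1.17 ± 0.13). The changes of Nupr1 and Ddit3 rest on low levels. Nupr1 had 4.61 ± 2.40 CPM with proline and 18.8 ± 3.75 CPM in control. Ddit3 had 2.06 ± 1.11 CPM with proline and 7.68 ± 0.892 CPM in control. Atf4 itself, named after its values had been seen, fell by 0.53 ± 0.12 on the log2 scale (adjusted p = 0.00522 by edgeR), with 325 ± 12.6 CPM with proline and 468 ± 51.6 CPM in control. The gene that rose was Mycn, a growth-promoting MYC factor (0.95 ± 0.12), at 326 ± 13.4 CPM with proline and 169 ± 5.47 CPM in control. Asns was lower in the same comparisons as Cth: by 0.82 ± 0.12 with both compounds against budesonide (adjusted p = 0.00118 by edgeR) and by 0.96 ± 0.13 with both against control (3.72e-05), while it was not called with budesonide against control (−0.15 ± 0.12) or with both compounds against proline (0.21 ± 0.12). Atf4 was lower with both compounds than in control as well (−0.63 ± 0.12, adjusted p = 0.00143 by edgeR). It was not called with both compounds against budesonide (−0.30 ± 0.12, adjusted p = 0.250 by edgeR) or against proline (−0.10 ± 0.12). Yet every library with both compounds lay below every budesonide library in Atf4, as was so for 9.23% of all genes. The interaction for Atf4 was 0.23, with an interval of −0.11 to 0.57. With budesonide against control Atf4 was not called by edgeR (−0.33 ± 0.12, adjusted p = 0.0935) but was by DESeq2 (0.0417).

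Of 10 tested genes of the methionine cycle list, 5 rose with proline and 5 were not called, where 3.17% of all genes rose. The list also holds polyamine genes, and Amd1, Srm and Sms were among those that rose. The list's median was 0.31 on the log2 scale beside −0.01 for all genes. They were led by Ahcy, which clears the methylation product S-adenosylhomocysteine (1.15 ± 0.25), Amd1, which commits S-adenosylmethionine to polyamines (0.80 ± 0.18), and the polyamine synthases Srm (0.69 ± 0.10) and Sms (0.66 ± 0.15). Of 18 folate cycle genes, 3 rose and 15 were not called, and those that rose included the purine synthesis enzymes Atic (0.69 ± 0.13) and Gart (0.67 ± 0.15). Of 11 genes of serine and glycine transport and use, the mitochondrial serine carrier Sfxn1 rose (0.36 ± 0.11), and the amino acid carrier Slc1a5 (−0.58 ± 0.18) and Serinc3 (−0.55 ± 0.16) fell. Of 8 genes of glycine and threonine breakdown, Tdh, the threonine dehydrogenase of mouse stem cells, fell by 0.33 ± 0.10. Of 12 cysteine and glutathione genes 0 were called by edgeR, with 1 at an unadjusted p below 0.05 and 0 called under each of the 14 alternatives. The calls of Tdh, Sfxn1, Slc1a5, Serinc3 and Ddit3 ended under 8 to 11 of the 14 alternatives, among them the leaving out of control 2 and of proline 2, and those of Amd1 (adjusted p = 0.0521) and Nupr1 (0.0557) ended without proline 1.

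**Figure D4:**
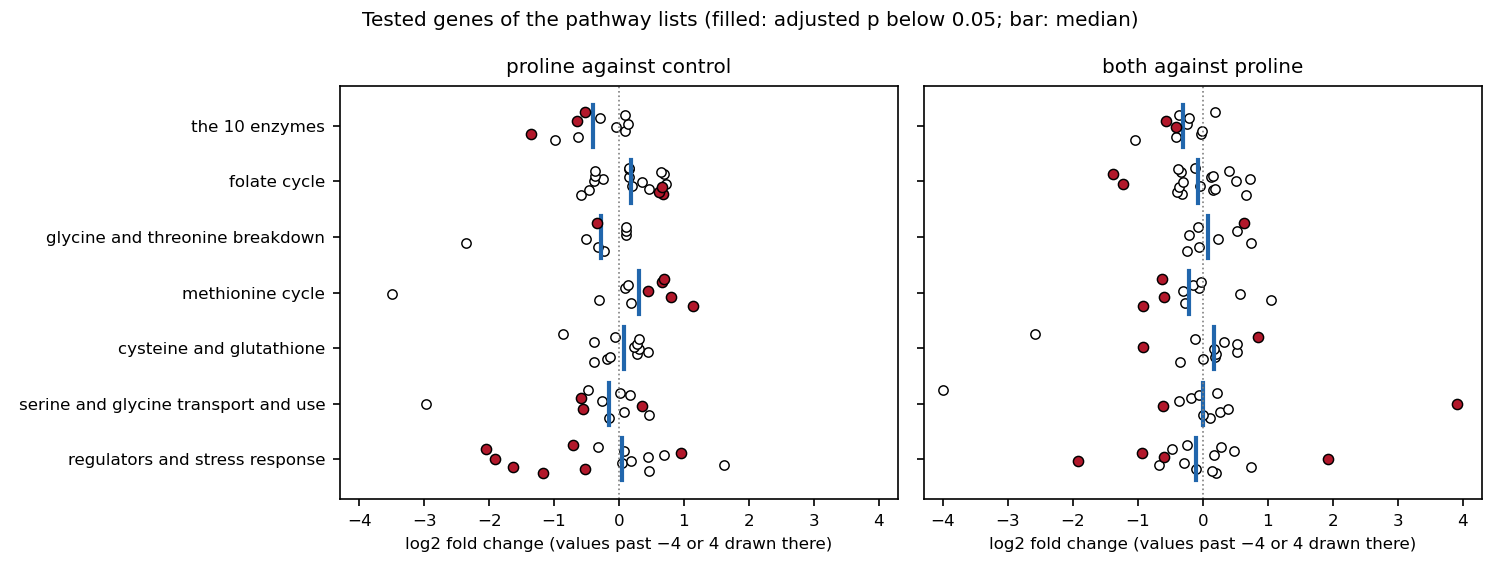
Log2 fold change of each tested gene (points) in the 10 enzymes and the 6 lists around them, with proline against control on the left and both compounds against proline on the right. Filled points had an adjusted p below 0.05, and the bar is the list's median. The median of the methionine cycle list, which includes polyamine genes, is 0.31 on the left and −0.21 on the right. That of the 10 enzymes is −0.41 and −0.30.

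With both compounds against proline, 3 of 10 genes of the methionine cycle list fell and 7 were not called. Of all genes, 10.1% were called, 4.27% lower and 5.83% higher. The 3 were Ahcy (−0.92 ± 0.25) and the polyamine genes Srm (−0.63 ± 0.10) and Amd1 (−0.60 ± 0.17). They had risen with proline in a comparison that shares the proline libraries. Srm had 459 ± 18.0 CPM with both compounds and 710 ± 25.9 CPM with proline. Of 18 folate cycle genes, 2 fell, so that 11.1% were called, close to the share of all genes: Mtrr, which reactivates methionine synthase (−1.38 ± 0.30), and Mtfmt, which formylates the mitochondrial initiator tRNA (−1.23 ± 0.32). Sfxn1 fell by 0.61 ± 0.11, while its relative Sfxn3 rose at levels near the detection limit, 5.20 ± 5.15 CPM with both compounds and 0.355 ± 0.257 CPM with proline. Tdh rose by 0.63 ± 0.10, with 749 ± 12.4 CPM with both compounds and 483 ± 45.1 CPM with proline. Of 12 cysteine and glutathione genes, Slc3a2, a heavy chain found in the cystine carrier, rose by 0.85 ± 0.15. Ggct, of glutathione breakdown, fell by 0.92 ± 0.23. Slc7a11, the light chain of the cystine carrier, was near the detection limit and not called. It had 0.154 ± 0.266 CPM with both compounds and 1.01 ± 0.879 CPM with proline, and uptake of cystine was not tested. Of 15 regulators, Ddit3 rose (1.93 ± 0.55) while Chac1, which degrades glutathione (−1.91 ± 0.39), Mycn (−0.94 ± 0.12) and Ddit4 (−0.60 ± 0.15) fell. The calls of Mtfmt, Ahcy, Amd1, Ggct, Sfxn3, Ddit3 and Ddit4 ended under 3 to 7 of the 13 alternatives, in each case without both 1 or without both 2.

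The genes whose log2 CPM ran most like that of a member were sought over the 12 libraries among all 13852 tested genes, by Pearson's r. These are the highest of many values over libraries that fall into 4 groups, and they are given as a description. Cth ran most like Gm26448 (r = 0.953), the cell cycle regulator Ccng1 (0.952) and Asns (0.940). Psat1 ran most like the translation release factor Etf1 (0.976), the glycyl-tRNA synthetase Gars (0.958) and Mms19 (0.951). Shmt1 and Mthfd2 shared the methionine aminopeptidase Metap2 among their nearest 3 (0.952 and 0.957). For Shmt2 the nearest was Ppp4r3b (0.956), for Mthfd1l Otulin (0.879), for Cbs Mapre3 (0.927), for Psph 0610010F05Rik (0.939) and for Phgdh Nphs1os (0.907). The nearest gene to Aldh1l2 had r = 0.828 (Rimbp3), over counts near 0. None of the 10 members was among the nearest 3 of another.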

How the data were processed

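Libraries were made with Lexogen's QuantSeq 3′ kit, per the labels' protocols. Per the submitters' processing notes, the build named is GRCm39 and the tools named are STAR 2.7.5c, cutadapt 2.5, featureCounts 2.0, bcl2fastq and DESeq2. Annotation, strand setting and treatment of multiply matching reads: not given in the sources used here.

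The authors deposited whole-number counts for 53819 symbols, and a normalised signal for 19196 symbols that equals the count over DESeq2's size factor within 0.01 for 100% of values. The counts were tested and the signal was used only for this check. In R 4.3.3, edgeR 4.0.16 kept genes with filterByExpr (minimum count 10, minimum total 15), scaled libraries by TMM and fitted all 12 libraries with 1 coefficient per group (8 residual degrees of freedom), with two-sided quasi-likelihood F tests. A gene was called, and is said to have risen or fallen, at a Benjamini-Hochberg adjusted p below 0.05 over all genes tested. The SE was taken as |log2 change| divided by √F, and intervals are 95% on the total degrees of freedom. The test was checked on simulated counts. DESeq2 1.42.0 and limma 3.58.1 (voom) were alternatives, as were other size factors, no low-count filter, only the groups compared, leaving out single libraries or control 3 with budesonide 3, a replicate block, and length and GC offsets. Replicates differed by more than sampling noise, with a chi-square per degree of freedom of 5.81 or higher. Floors and counts cover counting error only, since no molecular identifiers are named.

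The members and lists were chosen with earlier results of these data known. All 10 members are named in each comparison. Up to 4 called genes per list and direction, those with the largest absolute log2 change, are named for proline against control and both against proline. Of the 3 genes most like each member, 1 to 3 are named. The values of 1 gene that the rule picks are not reported here.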

Additional observations from a re-analysis of the deposited data

How the results depend on the processing

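Of 875 values of the 10 members under the alternatives, 837 stayed on their side of the threshold, 33 lost a call, 5 gained one and 0 reversed a called direction. Among values called in neither fit, 50 changed sign. The number of members called for proline against control was 2 to 3 when single libraries were left out and 3 under each other alternative. For budesonide against control it was 1, and 2 by DESeq2, 0 without control 3 and budesonide 3 together, 0 with length and GC offsets, and 0 to 2 without single libraries. For both against proline it was 2, and 3 by DESeq2, limma-voom and with only the groups compared, 1 with no low-count filter, 1 with a replicate block, 1 with offsets, and 0 to 1 without single libraries. For both against control it was 4, and 3 by limma-voom, with only the groups compared, with a replicate block and with offsets, 2 without control 3 and budesonide 3, and 2 to 4 without single libraries. For both against budesonide it was 2, and 1 to 2 without single libraries. The cause of these shifts was not tested. Leaving out a library leaves fewer samples, and the replicate block leaves fewer residual degrees of freedom. Some counts shifted under each of these and with the offsets.

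Same-numbered libraries of different groups did not deviate together (correlations of −0.0767 to 0.0529 over 18 pairs), and 3 of 12 libraries correlated best with one of their own number. Pairing by number was thus not detected. With 3 libraries per group and spread between them, these correlations cannot exclude it. With the replicate block the calls of Mthfd2 for both against proline (adjusted p = 0.0506) and Cbs for both against control (0.0827) ended.

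Counts of all genes called moved by over 1.5 times as follows. The 1091 for proline against control became 674 and 711 on leaving out proline 1 and proline 3, and 725 on leaving out control 1. The 902 for budesonide were 493 with only those 6 libraries and 575 without control 3 and budesonide 3. The 1399 for both against proline were 920 without proline 1, 836 without both 1 and 870 without both 2. The 993 for both against control were 537 without both 1 and 535 without both 2. The 203 for both against budesonide ranged from 80 (without both 1) to 435 (DESeq2), and the 65 of the interaction from 33 (offsets) to 162 (DESeq2). Aldh1l2 had the lowest counts of the members, at most 18 per library. Cbs and Phgdh had 65 to 276 counts per library, and how far depth limits them was not tested. Their CPM also differed between libraries of a group. Phgdh had 18.1 CPM in proline 1, the deepest library, and 35.4 and 35.2 CPM in the other proline libraries. Cbs had 39.3 CPM in control 3 and 20.3 and 21.0 CPM in the other control libraries.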
